A study of Mus musculus with 18 samples.

Results

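The change of wild-type (WT) mouse basophils between 2 h and 4 h of antigen exposure was described from 6 RNA sequencing libraries, 3 at 2 h and 3 at 4 h, of the 18 in the series. The cells were bone marrow-derived basophils, from marrow cultured with IL-3 at 0.3 ng/mL over 7 days, given IgE against the hapten TNP at 1 ug/mL on day 6 and enriched on day 7 with magnetic beads for CD49b, 50000 cells to a sample. Both groups received TNP-OVA, the hapten on ovalbumin, at 10 ng/mL, which binds and crosslinks the IgE on the cell. A WT group given control OVA at 10 ng/mL for 2 h (3 libraries) is shown beside them as the level without crosslinking. A further 9 libraries had the same 3 conditions and are labelled TTP-KO, a label for cells lacking the RNA-binding protein tristetraprolin (TTP, gene Zfp36). There was no control OVA group at 4 h, so the time under antigen and the time in culture cannot be told apart. The labels used here give no strain, sex or age of the mice and no form of the deleted allele, and do not say whether replicate libraries had separate mice or cultures as their source, so p-values measure spread among these libraries only, and that spread may be technical. All genes that passed a filter on low counts were followed, 14076 of the 56413 in the table, and they held 99.79% of the counts.

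Basophils are rare blood granulocytes that carry the high-affinity IgE receptor, FceRI. When antigen crosslinks the receptor, the kinases Lyn and Syk start calcium entry and the MAP kinase cascades, granules are released at once, and a wave of transcription follows in which immediate early transcription factors appear first and cytokines, chemokines and lipid mediator enzymes next. Many of the early messages carry AU-rich elements in the 3′ UTR, to which TTP and its relatives bind to hasten decay, and basophils are known in particular as a quick source of IL-4 and IL-13.

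Of the 14076 genes, 4382 changed between 2 h and 4 h (edgeR quasi-likelihood test, p adjusted by Benjamini-Hochberg, threshold 0.05). Of these genes 2140 were higher at 4 h (15.2% of those tested) and 2242 were lower (15.9%). Most of these changes were small, with a median size of 1.38-fold and 2854 of the 4382 under 1.5-fold. At least a 2-fold difference was reached by 163 higher genes (1.16%) and by 319 lower ones (2.27%), and at least 4-fold by 23 higher and 28 lower. In 6221 genes (44.2%) all 3 libraries of one time lay above all 3 of the other, 3154 of them higher at 4 h and 3067 lower, and 4218 of the genes called were among these. An exact permutation test of 3 libraries against 3 cannot give a p below 0.1, so the model fitted over all genes was used instead.

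The balance of falls and rises varied with the level of the transcript, given per library and not corrected for transcript length. Of the 590 genes with a mean above 8 on the log2 CPM scale (CPM, counts scaled to the same library size), 57.3% were lower at 4 h and 10.5% higher. Of the 3598 genes between 2 and 4 on that scale, 9.03% were lower and 16.8% higher. Below 2, where counts are low, 142 of 3648 genes were lower and 111 higher, and these hold 103 of the 319 falls and 85 of the 163 rises of at least 2-fold. Summed over the 319 genes that fell at least 2-fold, the level was 20630 to 21400 CPM in the control libraries, 98840 to 101300 CPM at 2 h and 36380 to 39400 CPM at 4 h. The chemokine genes Ccl3 and Ccl4 alone gave 43340 to 46090 CPM of that sum at 2 h and 15580 to 16820 CPM at 4 h. Without them, the other 317 genes summed to 15480 to 16110 CPM in control, 54540 to 55780 CPM at 2 h and 20790 to 22580 CPM at 4 h. The 163 genes that rose at least 2-fold summed to 982.3 to 1085 CPM in control and 993.2 to 1009 CPM at 2 h, ranges that overlap, and to 2480 to 2547 CPM at 4 h. Both classes were picked by these same 2 h and 4 h libraries, so the gap between the 2 times follows from the choice. That choice also bears on the 2 h sums beside control. Single risen genes moved both ways between control and 2 h, such as Tnfrsf9, which was higher at 2 h, and Tnfrsf18, which was lower.

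**Figure D1:**
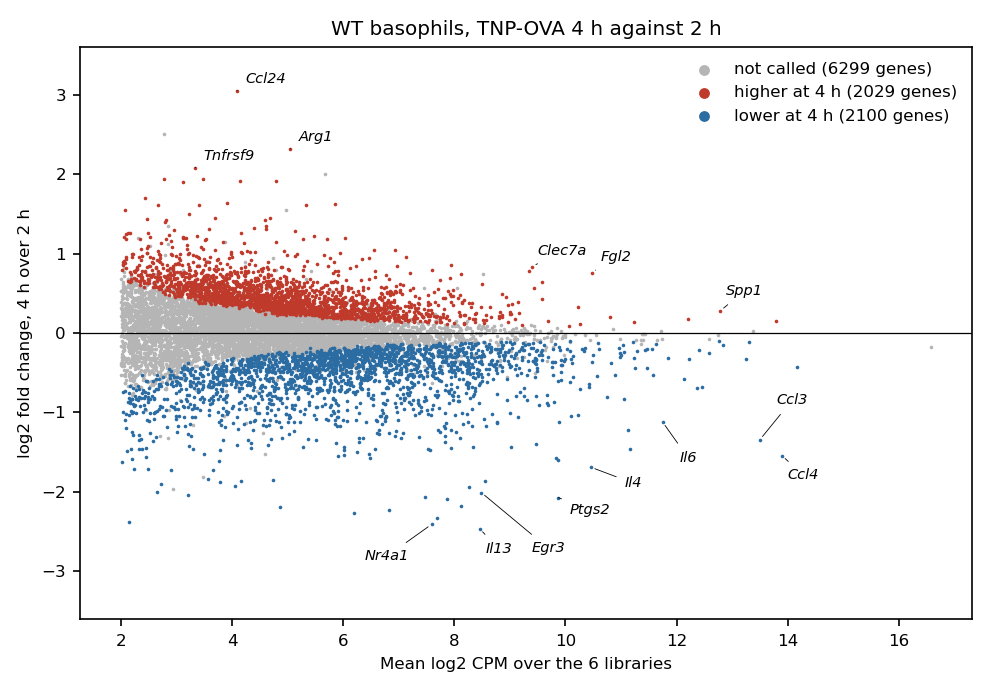
Change from 2 h to 4 h in WT basophils (log2 fold change, vertical axis) against the mean level over the 6 libraries (log2 CPM, horizontal axis), 1 point per gene, for the 10428 genes with a mean of at least 2. The 2029 genes called higher and the 2100 called lower are coloured and the 6299 others are grey; at the right, among the most abundant genes, most coloured points lie below 0.

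The WT libraries at 2 h held 6844315, 8288567 and 8522564 counts and those at 4 h 11123399, 12733172 and 9911699, so the 4 h libraries were deeper. The share of all genes called higher depends on how libraries are scaled. With the trimmed mean of M values (TMM), used throughout, the median change over all genes was 0.0186 on the log2 scale and 48.8% of the calls were higher. With library totals alone that median moved to 0.219, and the calls split into 4614 higher and 1191 lower (79.5% higher). Changes below are on the TMM scale, relative to the median gene, and a list is described by its counts and its median, to be read beside 0.0186 over all genes and beside the 15.2% and 15.9% called.

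Immediate early transcription factors fell as a group. Of the 35 tested, 25 fell and 2 rose, with a median log2 change of -0.65, and with library totals alone 21 fell and 4 rose. They are the factors that receptor signals switch on without new protein synthesis. Nr4a1, an orphan nuclear receptor (ENSMUSG00000023034), stood at 53.3 to 61.1 CPM in control, at 447, 437 and 449 CPM at 2 h, and at 75.6, 93.0 and 82.4 CPM at 4 h. Its 3 libraries at 4 h lay far below those at 2 h and still above control. The change was -2.41 (SE 0.068, adjusted p = 8.42e-20), or 5.31-fold down.

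The Nr4a1 relatives Nr4a3 and Nr4a2 and genes of the Egr family also fell. Nr4a3 fell by 2.18 on the log2 scale (SE 0.053, adjusted p = 2.68e-22), from 553, 609 and 604 CPM to 128, 128 and 134 CPM, and Nr4a2 fell by 1.85, from 47.9 to 53.1 CPM to 13.3 to 14.5 CPM. Egr3, a zinc finger factor of the early growth response family, went from 673, 716 and 772 CPM to 162, 182 and 194 CPM, against 63.1 to 69.6 CPM in control (change -2.01, SE 0.072, adjusted p = 2.11e-14). Egr1 of the same family went from 676, 750 and 726 CPM to 177, 198 and 218 CPM (change -1.86), while Egr2 fell by 0.59, from 133 to 137 CPM to 87.5 to 92.8 CPM. The 3 Egr genes were thus still above their control libraries at 4 h, by ranges that do not overlap (control 89.7 to 93.8 CPM for Egr1 and 32.4 to 37.7 CPM for Egr2).

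Members of AP-1, the dimer of Fos and Jun proteins, did not move alike. Fosb was at 17.2, 15.5 and 21.8 CPM at 2 h and at 4.42, 4.59 and 4.27 CPM at 4 h, below its control libraries (8.63 to 13.6 CPM), a change of -2.03 (SE 0.20, adjusted p = 3.37e-09). Junb fell by 1.02 on the log2 scale, from 575 to 591 CPM to 277 to 293 CPM. Fos did not pass the test (22.0 to 33.3 CPM at 2 h, 24.0 to 27.4 CPM at 4 h, change -0.09, adjusted p = 0.742), and its libraries overlapped.

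Some factors did not fall. Atf3, a stress-inducible partner of AP-1, rose by 0.48 on the log2 scale, from 145 to 168 CPM to 212 to 224 CPM (control 92.7 to 109 CPM). Irf4, a factor needed for type 2 responses, was at 28.1 to 34.2 CPM at 2 h and 37.3 to 49.4 CPM at 4 h (change 0.48, adjusted p = 0.0129). The Irf4 call was lost without the first 2 h library (change 0.41, adjusted p = 0.0719), without the second (0.42, 0.0721) or without the third 4 h library (0.36, 0.0712). Myc was at 19.1 to 27.1 CPM at 2 h and 24.9 to 28.6 CPM at 4 h, against 8.54 to 12.3 CPM in control, and did not pass the test (change 0.22, adjusted p = 0.338). Over 18 alternative fits the change of Myc ran from 0.08 to 0.42, and it passed in 1 of them.

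Genes that brake the MAP kinase pathway mostly fell. Of 18 tested, 10 fell and 1 rose, with a median of -0.49 (9 and 1 with library totals alone). Dusp2, a nuclear phosphatase of ERK, was at 157, 150 and 155 CPM at 2 h and 48.5, 57.1 and 49.0 CPM at 4 h, just above the control range of 39.2 to 44.5 CPM (change -1.58, SE 0.070, adjusted p = 1.93e-16). Dusp5, also a phosphatase of ERK, fell by 1.18 on the log2 scale, from 456 to 501 CPM to 209 to 216 CPM. Errfi1, an inhibitor of the EGF receptor family, fell by 1.37, and Spry2 and Spry4, inhibitors of Ras signalling, fell by 1.33 and 1.59. Spry4 rests on low counts, at 3.80 to 5.95 CPM at 2 h and 1.02 to 1.95 CPM at 4 h.

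Genes of the NF-kB pathway fell less far. Of 20 tested, 12 fell and 2 rose, with a median of -0.34, and with library totals alone 7 fell and 5 rose. Nfkbid, an atypical nuclear IkB protein, fell by 1.26 on the log2 scale, from 206 to 215 CPM to 80.5 to 91.6 CPM. Nfkbiz, its relative, fell by 0.97, from 90.4 to 97.2 CPM to 45.4 to 49.9 CPM, which overlaps its control range of 46.0 to 50.2 CPM. The subunit Rel fell by 0.69, and Tnip1, an adaptor of the inhibitor A20, by 0.49.

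The calcium arm and the feedback on cytokine receptors were mixed. Of 25 genes of the calcium and NFAT pathway 11 fell and 3 rose (median -0.14, and 8 and 6 with library totals alone). Orai1, the pore of the store-operated calcium channel, fell by 1.01 on the log2 scale, from 319 to 331 CPM to 157 to 166 CPM, and Nfatc1 fell by 0.78. Of 20 feedback genes of cytokine signalling 10 fell and 3 rose, a balance that turned to 6 and 8 with library totals alone. Bcl6, a transcriptional repressor, fell by 1.39 and Socs3 by 0.79, whereas Socs2, a brake on growth hormone and cytokine receptors, rose by 0.84, from 37.2 to 41.7 CPM to 64.9 to 75.7 CPM. Socs1, a brake on JAK kinases, was at 327 to 360 CPM at 2 h and 332 to 397 CPM at 4 h, against 71.1 to 75.8 CPM in control, and did not pass the test (change 0.07, adjusted p = 0.379). Over 18 alternative fits the change of Socs1 ran from -0.02 to 0.27, and it passed in 1 of them.

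Cytokine transcripts fell more often than they rose. Of 23 tested 12 fell and 2 rose, with a median of -0.63 (12 and 3 with library totals alone). Il13, a type 2 cytokine that acts on epithelium and smooth muscle (ENSMUSG00000020383), was at 92.1 to 104 CPM in control, at 786, 855 and 834 CPM at 2 h and at 139, 150 and 160 CPM at 4 h. The 2 h libraries stood far above all others. The change of -2.46 (SE 0.055, adjusted p = 1.14e-22), or 5.51-fold down, was the largest fall the naming rule found.

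Il4, its neighbour in function, fell less. Its libraries were at 255, 274 and 266 CPM in control, at 2244, 2803 and 2546 CPM at 2 h and at 749, 777 and 829 CPM at 4 h, so that at 4 h it lay between both other groups without overlap (change -1.69, SE 0.074, adjusted p = 6.93e-11). Il6, which acts on B cells and hepatocytes, was at 672 to 695 CPM in control, 5173, 5145 and 4973 CPM at 2 h and 2094, 2428 and 2513 CPM at 4 h (change -1.12, SE 0.062, adjusted p = 5.21e-10). Tnf was at 462, 432 and 456 CPM at 2 h and at 192, 208 and 220 CPM at 4 h, where it overlapped the control range of 176 to 199 CPM (change -1.12). Csf1, the macrophage growth factor, fell by 1.23, from 3370 to 3447 CPM to 1391 to 1525 CPM, and Tnfsf14 (LIGHT) fell by 1.3.

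**Figure D2:**
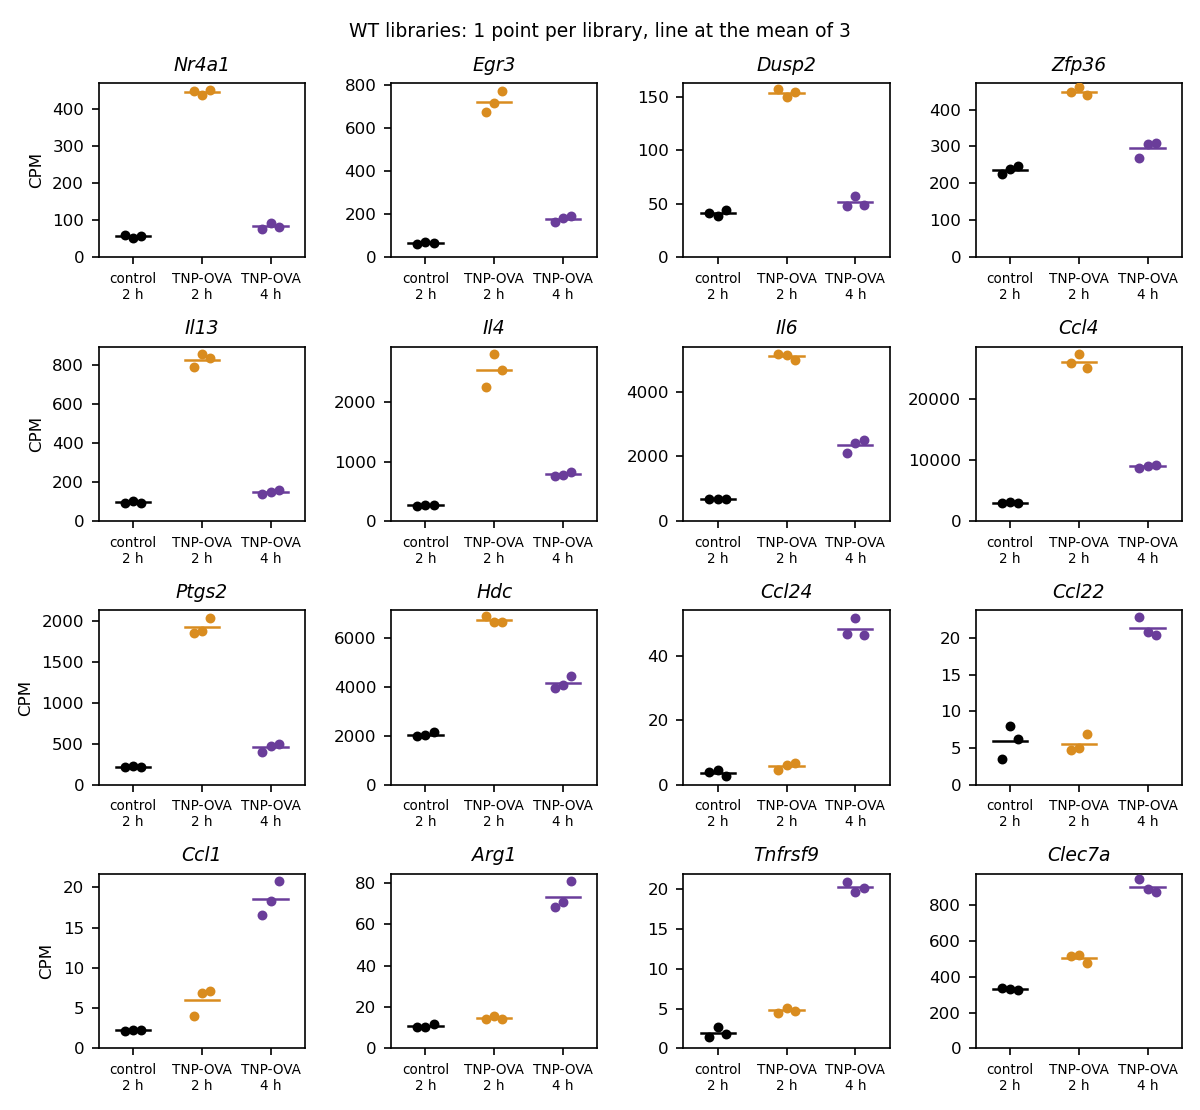
CPM of 16 genes in each WT library (points) of the groups control OVA (2 h), TNP-OVA (2 h) and TNP-OVA (4 h), with the mean of the 3 libraries as a line; each panel has its own vertical axis from 0. Genes such as Nr4a1, Il13 and Ptgs2 peak at 2 h, while Ccl24, Arg1 and Tnfrsf9 are highest at 4 h.

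A pair of cytokines of the haematopoietic family did not pass the test. Il3, the growth factor of basophils themselves, was at 11.9, 12.4 and 13.5 CPM at 2 h and at 16.9, 18.2 and 14.8 CPM at 4 h (change 0.40, SE 0.24, adjusted p = 0.227), against at most 2.66 CPM in control. Csf2 (GM-CSF) was at 7.26, 12.6 and 10.2 CPM at 2 h and at 6.71, 7.00 and 8.24 CPM at 4 h (change -0.46, SE 0.21, adjusted p = 0.0909). Both stayed well above control at both times. Il3 passed with the 6 WT antigen libraries alone (0.40, adjusted p = 0.027) and with library totals alone (0.60, adjusted p = 0.0494), and Csf2 passed without the first 2 h library (-0.67, adjusted p = 0.0201).

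The chemokines divided, with 8 of 21 higher and 6 lower (median 0.11, and 9 and 5 with library totals alone). The macrophage inflammatory proteins, which draw leukocytes to inflamed tissue, fell: Ccl4 was at 2994 to 3119 CPM in control, 25970, 27420 and 25150 CPM at 2 h and 8667, 9003 and 9284 CPM at 4 h (change -1.54, SE 0.041, adjusted p = 3.93e-18). Ccl3 went from 18330, 18670 and 18190 CPM to 6916, 7314 and 7533 CPM (change -1.34). Cxcl2, a neutrophil attractant, fell by 0.55, from 1324 to 1423 CPM to 806 to 1048 CPM. The libraries of the 2 times did not overlap for any of these genes.

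Ccl24, Ccl22, Ccl1 and Ccl17 were the 4 largest rises of the list. Ccl24 (eotaxin-2, an eosinophil attractant that binds CCR3, ENSMUSG00000004814) was at 2.72 to 4.48 CPM in control, 4.62, 6.08 and 6.61 CPM at 2 h and 46.8, 51.7 and 46.5 CPM at 4 h. Its 4 h libraries stood far above all others, with a change of 3.05 (SE 0.18, adjusted p = 6.33e-13), or 8.29-fold up, the largest rise the naming rule found. Ccl22 and Ccl17, both ligands of CCR4 on Th2 cells, rose by 1.93 (SE 0.22, adjusted p = 7.55e-08) and 1.19. Ccl22 was at 4.79, 4.98 and 6.88 CPM at 2 h, within its control range of 3.47 to 7.97 CPM, and at 22.8, 20.9 and 20.3 CPM at 4 h. Ccl17 was at 3.80 to 6.91 CPM and then at 11.8 to 15.4 CPM, and Ccl1, a ligand of CCR8, at 3.96, 6.91 and 7.14 CPM and then at 16.5, 18.4 and 20.8 CPM (change 1.61).

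Ccl9 and Ccl6, other CC chemokines of myeloid cells, had small changes. Ccl9 rose by 0.17 on the log2 scale (4299 to 4528 CPM at 2 h, 4840 to 5247 CPM at 4 h), and Ccl6 fell by 0.25 (6572 to 6902 CPM at 2 h, 5456 to 6067 CPM at 4 h), a call that was lost with library totals alone (change -0.05). Neither call held when the test asked for more than a 1.2-fold change.

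TTP is itself an early gene, and its transcript fell with its reported targets. Zfp36 was at 224 to 247 CPM in control, at 447, 460 and 439 CPM at 2 h and at 268, 307 and 309 CPM at 4 h (change -0.61, SE 0.053, adjusted p = 3.78e-10), above control at both times. Its paralog Zfp36l1 fell by 0.65, from 191 to 200 CPM to 117 to 128 CPM. Of 39 mRNAs reported as TTP targets, 26 fell and 4 rose, with a median of -0.64 (25 and 7 with library totals alone). They include Il13, Il4, Il6, Tnf, Ccl3 and Ccl4, described above, Ptgs2, and Plk3, a stress kinase that fell by 1.6 on the log2 scale, from 1618 to 1650 CPM to 515 to 552 CPM. Of 44 AU-rich element binders and RNA decay factors 14 fell and 3 rose (10 and 20 with library totals alone, so the balance turns), with Btg2 and Tob1, which recruit the deadenylase, at -1.01 and -0.81.

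The AU-rich element is often searched as the nonamer TTATTTATT around the core ATTTA. Over the longest 3′ UTR of each gene in the GENCODE vM21 annotation (GRCm38, while the counts were made on GRCm39), 13.2% of the genes that fell at least 2-fold held the nonamer (32 of 243, 95% Wilson interval 9.48 to 18%). The share was 5.26% of those that rose at least 2-fold (7 of 133, 2.57 to 10.5%) and 8.12% of all tested (942 of 11595). The UTRs of the fallen genes were also longer, with a median of 1316 bases against 1008 and 1146 bases. Among UTRs of 500 to 2000 bases the shares were 12.4% (14 of 113, 7.53 to 19.7%), 2.94% (2 of 68, 0.81 to 10.1%) and 6.44% (334 of 5186). The intervals of fallen and risen genes overlap here and over all UTRs. Per 1000 bases of UTR the fallen genes had 0.0925 nonamers, the risen 0.0442 and all genes 0.0675. This search was added after the values were seen, and a match is a run of letters, not a shown binding site. Of the 15 largest falls named by the rule, 4 held the nonamer, and each is printed here with 10 bases on either side, 5′ to 3′ on the strand of the gene, the nonamer in capitals. They lie in Il13 (chr11:53631741-53631769, minus strand, 306 bases after the stop codon), Serpinb2 (chr1:107525197-107525225, plus strand, 266 bases after), Ptgs2 (chr1:150105790-150105818, plus strand, 18 bases after) and Cdk5r1 (chr11:80481123-80481151, plus strand, 2701 bases after).
Il13: cttcttgatcTTATTTATTatggttgtgt
Serpinb2: ttttacagtgTTATTTATTgtttatataa
Ptgs2: ctgaccatatTTATTTATTtatgtgaaga
Cdk5r1: tcccttatttTTATTTATTtttgtactgt
The nonamer was in none of the 15 largest rises, but it was in Lpl, Pik3cd and Hk2, which rose less. Most of the named falls lack it in these annotated UTRs, among them Nr4a1, Egr3, Il4, Il6 and Ccl4.

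Serpinb2, an inhibitor of plasminogen activators, fell by 2.32 on the log2 scale (SE 0.058, adjusted p = 4.50e-22), from 454, 462 and 469 CPM to 83.8, 89.7 and 104 CPM. That is close to its control libraries (68.3 to 71.6 CPM) without overlapping them. Ptgs2 (cyclooxygenase-2, which makes the precursor of prostaglandins) was at 212 to 233 CPM in control, 1863, 1879 and 2045 CPM at 2 h and 406, 468 and 502 CPM at 4 h, a change of -2.07 (SE 0.082, adjusted p = 4.54e-11). Cdk5r1, an activator of the kinase Cdk5, fell by 1.90 and was low throughout, at 12.3 to 12.5 CPM at 2 h and 2.26 to 4.17 CPM at 4 h.

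Other named falls had varied roles. Rrad, a small GTPase, fell by 2.26, Ggct, an enzyme of glutathione turnover, by 2.22, and Sgms2, a sphingomyelin synthase, by 2.19. Faah, which breaks down endocannabinoids, fell by 2.06, Gch1, which makes the cofactor tetrahydrobiopterin, by 1.94, and Nanos1, an RNA-binding repressor, by 1.88. Vcl (vinculin, which links integrins to actin) was at 169 to 183 CPM in control, 455, 479 and 502 CPM at 2 h and 107, 110 and 121 CPM at 4 h, so its 4 h libraries lay below control (change -2.09, SE 0.062, adjusted p = 9.70e-20). Actb and Actg1, the cytoplasmic actins, fell by 0.42 and 0.67. Actb was at 9457 to 9976 CPM in control, 20680 to 21790 CPM at 2 h and 15020 to 16520 CPM at 4 h.

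Promoters of the fallen and risen genes were compared by the letters they hold. RefSeq promoter windows (GRCm38.p6, 250 bases before to 50 after the start, both strands searched) were matched by symbol for 9765 of the 14076 genes, 207 of the 319 falls and 110 of the 163 rises. A TATA box (TATAAA) stood in 17.4% of the fallen genes' promoters (36 of 207, 95% Wilson interval 12.8 to 23.1%), in 7.27% of the risen genes' (8 of 110, 3.73 to 13.7%) and in 8.73% of all. The AP-1 site (TGANTCA) stood in 9.66%, 5.45% and 6.34%, the NF-kB consensus in 12.6%, 11.8% and 9.84%, the CArG box bound by serum response factor in 2.90%, 0% (of 110, upper limit 3.37%) and 1.6%, and the NFAT core (GGAAAA) in 24.6%, 26.4% and 24.2%. For these last 4 motifs the intervals of fallen and risen genes overlap each other and the share of all genes. The TATA box intervals of fallen and risen genes also overlap each other, but the share of all genes lies below the interval of the fallen genes. The CRE (TGACGTCA, which also counts as its half-site TGACG) stood in 3.86%, 1.82% and 3.56%, the E-box (CACGTG) in 10.6%, 12.7% and 11.5%, and CCAAT in 39.1%, 39.1% and 42.8%. The median GC content was 60.2%, 55.7% and 60.3%.

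Of the 30 genes with the largest changes, 25 had a promoter in the table and 7 of those held a CArG box, a CRE or an NF-kB match: Fosb, Gch1, Nr4a1 and Vcl among the falls and Ccl1, Rab3il1 and Tnfrsf9 among the rises. The share of all tested genes that hold any of these 3 motifs was not computed, so the 7 do not show an excess over it. Of the 7, the 4 with the largest changes are shown, 5′ to 3′ on the strand of the gene, with the matches in capitals. The NF-kB match of Nr4a1 (chr15:101266596-101266895, plus strand) begins 3 bases before the start and runs across it. The CArG box of Vcl (chr14:20929148-20929447, plus strand) begins 227 bases before the start. Tnfrsf9 (chr4:150927749-150928048, plus strand) has 2 overlapping NF-kB matches that begin 43 and 42 bases before the start. The NF-kB match of Fosb (chr7:19309996-19310295, minus strand) begins 188 bases before it.
Nr4a1: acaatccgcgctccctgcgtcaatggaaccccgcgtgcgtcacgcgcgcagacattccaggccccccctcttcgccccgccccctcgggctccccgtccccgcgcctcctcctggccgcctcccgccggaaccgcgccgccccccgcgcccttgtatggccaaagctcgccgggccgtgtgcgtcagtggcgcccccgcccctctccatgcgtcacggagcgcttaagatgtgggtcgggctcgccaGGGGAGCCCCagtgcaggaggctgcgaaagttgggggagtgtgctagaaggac
Vcl: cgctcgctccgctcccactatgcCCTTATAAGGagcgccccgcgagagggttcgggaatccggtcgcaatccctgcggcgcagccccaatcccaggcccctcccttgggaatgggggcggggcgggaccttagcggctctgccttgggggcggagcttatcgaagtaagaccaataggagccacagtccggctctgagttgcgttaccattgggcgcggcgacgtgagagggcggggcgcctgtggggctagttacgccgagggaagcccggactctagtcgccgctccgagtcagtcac
Tnfrsf9: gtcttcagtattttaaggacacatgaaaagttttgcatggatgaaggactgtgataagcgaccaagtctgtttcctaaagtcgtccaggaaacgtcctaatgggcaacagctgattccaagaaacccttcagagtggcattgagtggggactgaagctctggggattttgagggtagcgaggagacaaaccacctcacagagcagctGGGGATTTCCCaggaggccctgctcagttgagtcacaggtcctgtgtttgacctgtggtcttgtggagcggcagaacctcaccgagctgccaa
Fosb: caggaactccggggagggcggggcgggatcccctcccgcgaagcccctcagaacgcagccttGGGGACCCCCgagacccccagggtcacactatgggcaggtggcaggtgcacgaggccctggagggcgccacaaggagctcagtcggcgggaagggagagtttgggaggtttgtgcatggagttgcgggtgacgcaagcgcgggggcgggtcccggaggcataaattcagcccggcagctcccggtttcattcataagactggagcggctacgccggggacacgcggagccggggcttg
A match describes the letters only, and its part in the changes was not tested.

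Mediator enzymes other than Ptgs2 moved less. Of 25 genes of histamine and lipid mediators 7 fell and 6 rose, which turned to 5 and 8 with library totals alone. Hdc, the enzyme that makes histamine, was at 1979 to 2138 CPM in control, 6872, 6628 and 6628 CPM at 2 h and 3950, 4076 and 4440 CPM at 4 h (change -0.69, SE 0.038, adjusted p = 1.90e-14). Hpgds, the prostaglandin D2 synthase, fell by 0.82 to 13.4 to 14.3 CPM, under its control range of 19.9 to 25.0 CPM. Ptger4, a receptor for prostaglandin E2, fell by 0.90. Of the growth factors, Areg (amphiregulin, an EGF receptor ligand) fell by 0.91, from 1067 to 1209 CPM to 568 to 629 CPM, and Igf1 rose by 0.54, from 204 to 211 CPM to 295 to 317 CPM.

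Granule proteins changed in both directions. Of 23 granule and exocytosis genes 7 fell and 3 rose (4 and 11 with library totals alone). Prss34, the basophil protease mMCP-11, fell by 0.33, from 10660 to 11210 CPM to 8678 to 8800 CPM, and Cpa3, carboxypeptidase A3, by 0.48. Serpinb6b, a serpin, had the largest change of the list, 2.05, on low counts (0.50 to 1.66 CPM at 2 h, 4.28 to 4.78 CPM at 4 h). Mcpt8, the protease that marks mouse basophils, did not pass the test (6809 to 7098 CPM at 2 h, 6345 to 7367 CPM at 4 h, change -0.02, adjusted p = 0.804). In bulk libraries, fewer cells of a type and less RNA per cell cannot be told apart.

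The 3 chains of the IgE receptor did not move alike. Fcer1a, the chain that binds IgE, was at 826 to 918 CPM in control, 661, 650 and 703 CPM at 2 h and 465, 480 and 448 CPM at 4 h (change -0.53). Ms4a2, the signal-amplifying beta chain, was at 392 to 419 CPM in control, 199, 200 and 216 CPM at 2 h and 297, 282 and 287 CPM at 4 h (change 0.49). Fcer1g, the signalling gamma chain, fell by 0.27, from 2072 to 2378 CPM to 1857 to 1870 CPM, a call lost with library totals alone (-0.07) and in the test against a 1.2-fold change. So Fcer1a was lowest at 4 h and Ms4a2 lowest at 2 h, and for all 3 chains the 2 h and 4 h libraries did not overlap. Of the 36 genes of the receptor and its proximal signalling 11 fell and 9 rose (7 and 17 with library totals alone). Pik3cd, the leukocyte PI3-kinase subunit, rose by 0.79, while Sla, an adaptor that damps receptor signalling, fell by 0.72.

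Receptors for other signals fell more often than they rose on the TMM scale (15 against 4 of 37 cytokine and chemokine receptors, but 6 against 11 with library totals alone). Cxcr4, the receptor for the marrow-retention chemokine CXCL12, was at 191 to 203 CPM in control, 436, 419 and 446 CPM at 2 h and 172, 172 and 176 CPM at 4 h (change -1.32, SE 0.043, adjusted p = 1.29e-19), which is below control. Il1rl1 (ST2, the IL-33 receptor) fell by 0.77, from 929 to 1242 CPM to 580 to 658 CPM. Of 32 costimulatory and activation receptors 14 fell and 6 rose (8 and 9 with library totals alone). The checkpoint receptor Havcr2 (TIM-3) fell by 1.16, from 555 to 592 CPM to 250 to 260 CPM, and Cd83, an activation marker, fell by 1.17 to 38.5 to 40.5 CPM, under its control range of 59.5 to 65.4 CPM.

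Of the receptors that rose, 3 are given by library. Tnfrsf9 (4-1BB, ENSMUSG00000028965) was at 1.39 to 2.66 CPM in control, 4.46, 5.12 and 4.72 CPM at 2 h and 20.9, 19.7 and 20.1 CPM at 4 h (change 2.08, SE 0.21, adjusted p = 8.15e-09). Tnfrsf18 (GITR) was at 26.7 to 33.2 CPM in control, dipped to 14.7 to 15.6 CPM at 2 h and was at 34.3 to 40.7 CPM at 4 h (change 1.31). Clec7a, the beta-glucan receptor dectin-1, was at 328 to 337 CPM in control, 516, 525 and 478 CPM at 2 h and 946, 891 and 876 CPM at 4 h (change 0.84, SE 0.041, adjusted p = 1.68e-15).

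Arg1 (arginase 1, which breaks down arginine, ENSMUSG00000019987) had the second largest rise among the genes the naming rule admits. It was at 10.3 to 11.6 CPM in control, 14, 15.8 and 14.2 CPM at 2 h and 68.4, 70.5 and 80.8 CPM at 4 h, a change of 2.32 (SE 0.098, adjusted p = 6.17e-17), or 4.98-fold up. Prss37, a serine protease relative, rose by 1.92, from 11.9 to 15.9 CPM to 50.4 to 57.0 CPM. Tifab, an inhibitor of TRAF6 signalling, rose by 1.91 from 7.68 to 10.1 CPM, below its control range of 12.2 to 14.9 CPM, to 32.9 to 34.8 CPM. Rab3il1, an exchange factor for Rab3 relatives, rose by 1.61, from 22.7 to 23.8 CPM to 64.4 to 73.2 CPM.

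Other named rises were scarce transcripts: Exosc6, an exosome subunit (1.94), Col18a1, which encodes a basement membrane collagen (1.90), Nes, an intermediate filament (1.70), Tmem26 (1.64), Tmeff1 (1.61), the receptor phosphatase Ptprf (1.5) and Lad1, an anchoring filament protein (1.44). Among abundant genes, Fgl2, a secreted fibrinogen relative, was at 382 to 417 CPM in control, 1078, 1107 and 1101 CPM at 2 h and 1728, 1871 and 1973 CPM at 4 h (change 0.76). Spp1 (osteopontin) was at 6194 to 6829 CPM at 2 h and 7544 to 7940 CPM at 4 h (change 0.28), and Lpl, lipoprotein lipase, rose by 0.78 from 482 to 506 CPM to 831 to 867 CPM. Tmsb4x, an actin-sequestering peptide, had a change of 0.15 (adjusted p = 0.00699) that was lost without the first 2 h library (0.10, adjusted p = 0.112) or the third (0.12, 0.0854).

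The widest rise of a functional group was that of Myc targets and ribosome biogenesis factors. Of 40 tested 30 rose and 1 fell, with a median log2 change of 0.60 (37 higher with library totals alone), against 15.2% of all genes. Polr1a, the large subunit of RNA polymerase I, was at 5.45, 4.84 and 4.85 CPM at 2 h and 10.3, 10.1 and 11.8 CPM at 4 h (change 1.09, SE 0.22, adjusted p = 3.85e-04). Rrp1b, a nucleolar factor, rose by 1.08, Nop2, an rRNA methyltransferase, by 1.01 and Srm, spermidine synthase, by 0.98. Srm was at 20.0 to 23.6 CPM at 2 h, the same range as control (18.9 to 24.0 CPM), and at 43.3, 43.8 and 45.4 CPM at 4 h.

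The transcripts of the nucleolar proteins nucleolin and nucleophosmin, chosen after their values were seen, did not pass the test. Ncl (nucleolin) was at 149 to 158 CPM at 2 h and 153 to 157 CPM at 4 h (change 0.00, adjusted p = 0.998), and Npm1 (nucleophosmin) at 148 to 156 CPM and 149 to 162 CPM (change 0.03, adjusted p = 0.762). Over 18 alternative fits the change ran up to 0.20 for Ncl and up to 0.23 for Npm1, and each passed in 1 of them. Cytosolic ribosomal proteins went the other way on the TMM scale, with 16 of 38 lower and 1 higher and a median of -0.27, which came to 4 and 1 and a median of -0.07 with library totals alone.

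**Figure D3:**
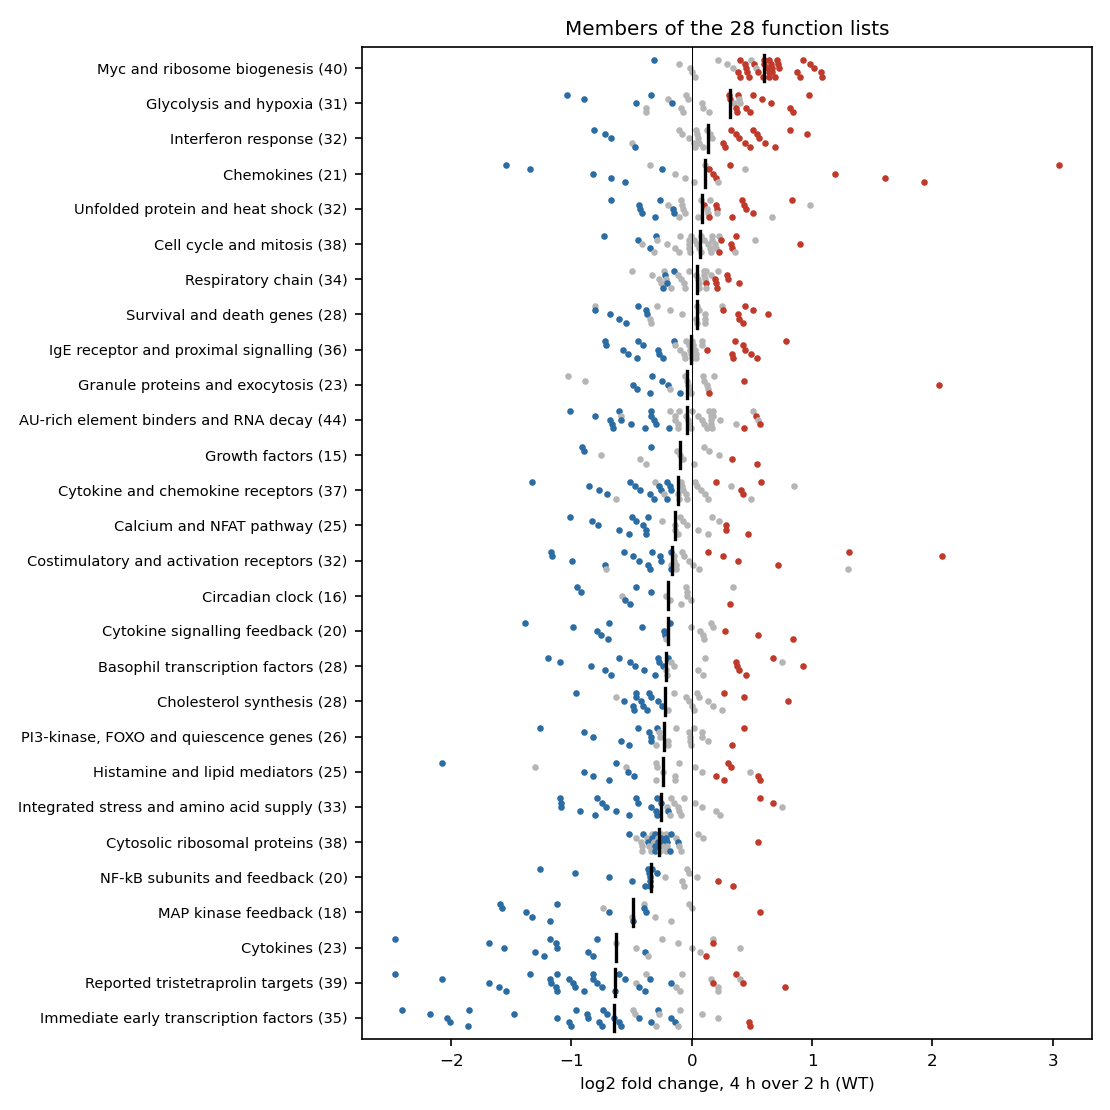
Log2 fold change from 2 h to 4 h in WT basophils of each tested member of 28 lists of functions (points, coloured where called higher or lower), with the list's median as a bar. Immediate early factors, cytokines and reported TTP targets lie mostly left of 0, and Myc and ribosome biogenesis genes mostly right of it.

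Glycolysis and hypoxia genes also rose more often than they fell, 13 against 5 of 31, with a median of 0.31 (18 and 4, median 0.52, with library totals alone). Without the third 2 h library the median was 0.15, with 13 higher and 4 lower. Hk2 (hexokinase 2) was at 56.5 to 68.7 CPM in control, fell to 25.1, 29.0 and 33.7 CPM at 2 h and was at 49.5, 55.1 and 53.3 CPM at 4 h (change 0.84). Aldoa and Eno1, enzymes of the lower pathway, rose by 0.32 and 0.45. Pfkfb3, which drives glycolytic flux, went against them and fell by 1.04, from 78.1 to 79.5 CPM to 33.5 to 45.9 CPM.

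Genes of the integrated stress response and amino acid supply fell, 18 of 33 with 2 higher and a median of -0.26 (11 and 5 with library totals alone). Slc7a1, a transporter of cationic amino acids, went from 138 to 143 CPM to 59.8 to 70.2 CPM (change -1.09), against 38 to 48.3 CPM in control. Chac1, which degrades glutathione, and Trib3, a pseudokinase induced by ATF4, fell by 1.09 each. Of 28 cholesterol genes 13 fell and 3 rose (6 and 7 with library totals alone), with Cyp51 at -0.96, and the 32 genes of protein folding stress split into 10 higher and 8 lower (19 and 4 with library totals alone), with the chaperone Hsph1 at 0.84.

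Interferon response genes leaned upward, 14 against 4 of 32 with a median of 0.14, but only 8 rose without the second 4 h library. Usp18, a brake on interferon signalling, was at 13.9, 12.0 and 8.49 CPM at 2 h and 22.6, 24.7 and 18.9 CPM at 4 h (change 0.96). Gbp5, a GTPase of cell-intrinsic defence, fell by 0.81. Of 26 genes of PI3-kinase, FOXO and quiescence 10 fell and 2 rose (7 and 7 with library totals alone), among them Klf3, a repressor, which fell by 1.26 to 59.2 to 64.3 CPM from 138 to 164 CPM, while its control range was 136 to 146 CPM. Of 28 transcription factors of basophils 14 fell and 6 rose (9 and 8 with library totals alone), with Runx2 at -1.19 (339 to 357 CPM to 149 to 156 CPM) and Bach2 at 0.92 (9.17 to 9.74 CPM to 17.8 to 18.1 CPM).

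The remaining lists had calls both ways. Of 28 survival and death genes 7 rose and 7 fell, with the anti-apoptotic Bcl2l1 at 0.63 and the pro-apoptotic Pmaip1 at -0.80. Of 38 genes of the cell cycle, 6 were called higher and 4 lower (23 and 3 with library totals alone, and 3 higher without the second 4 h library), with Ccnd1 at 0.90 and Ccnd2 at -0.73. Of 34 respiratory chain genes 7 rose and 4 fell (20 higher with library totals alone, and 3 higher without the third 2 h library). Of 16 clock genes 6 fell and 1 rose (3 and 1 with library totals alone), with Rora at -0.96 and Per2 at -0.92. Of 15 growth factors 3 fell and 2 rose.

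**Figure D4:**
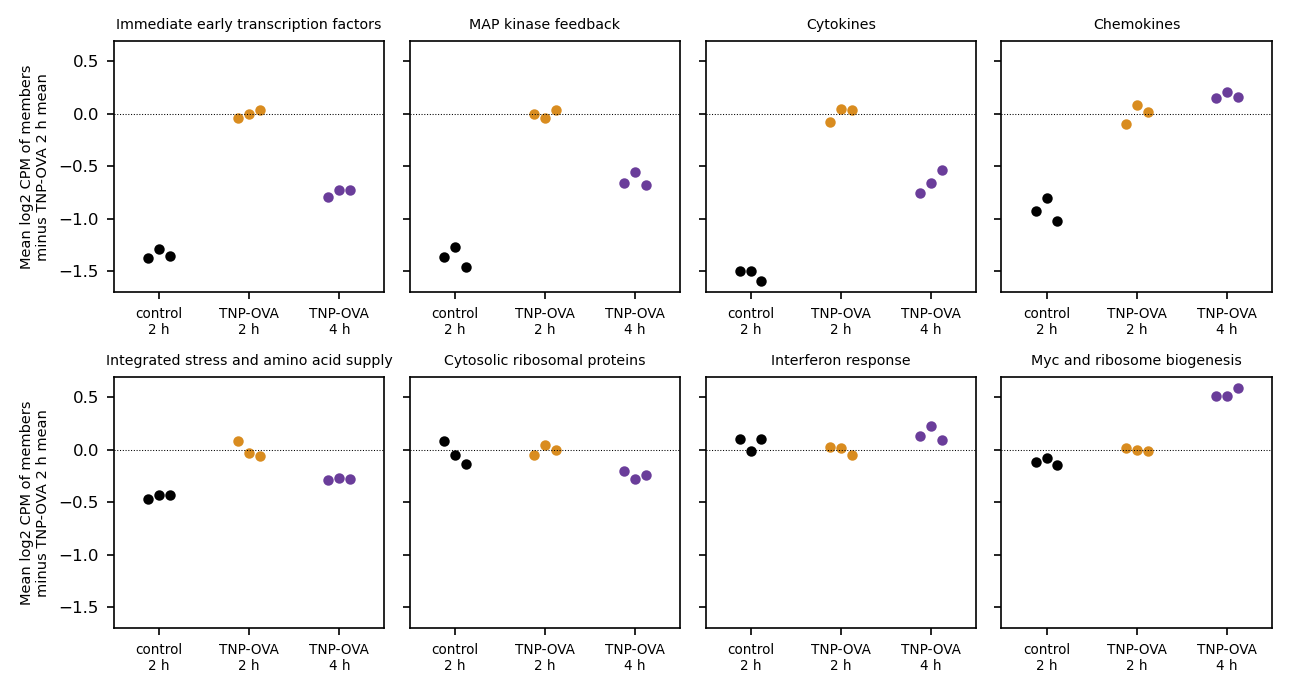
Mean log2 CPM of the tested members of 8 lists in each WT library, given as the difference from the mean of the TNP-OVA 2 h libraries; each point is a library. Early factor and cytokine lists are highest at 2 h, and Myc and ribosome biogenesis genes are highest at 4 h.

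Markers of other cells moved in part. Of the 11 basophil markers tested 8 fell and 1 rose (4 and 2 with library totals alone), and without Ccl3 and Hdc, which antigen induces, their summed level was 23140 to 24250 CPM in control, 25230 to 26370 CPM at 2 h and 21800 to 22850 CPM at 4 h (Ptgdr2 was at 0 in all 3 libraries at 2 h). Of 17 neutrophil markers 10 fell and 3 rose (6 and 3 with library totals alone), with sums of 2266 to 2618 CPM at 2 h and 2107 to 2245 CPM at 4 h. Retnlg, a neutrophil gene, fell by 0.90 and Chil3 rose by 0.86. The 13 monocyte and macrophage markers (3 lower and 2 higher, which turned to 2 and 6 with library totals alone) summed to 7669 to 8305 CPM and then 6865 to 7140 CPM. The dendritic cell and class II markers (2 of 7 higher, 5 with library totals alone, Itgax at 0.81) summed to 3816 to 4127 CPM and then 4147 to 4294 CPM. Mast cell markers (6 tested, 1 each way) summed, without Ccl3 and Hdc, to 244.1 to 267.3 CPM and then 280.8 to 290.7 CPM, with Mrgprb2 at 0 in all 3 libraries at 4 h. T, B and NK cell markers (8 tested, 1 each way) summed to 115 to 126 CPM and then 95.8 to 111 CPM. Eosinophil, erythroid and platelet markers had 1 gene lower each, of 8, 6 and 7 tested. Platelet markers stood at 1400 to 1586 CPM and then 1313 to 1378 CPM. For these lists and the mast cell list, 1 call is near the 15.2% higher and 15.9% lower of all genes tested. The part of these cells in the changes above was not tested.

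The same interval was compared in the libraries labelled TTP-KO, which share no library with the WT groups. There 2050 genes were higher at 4 h (14.6%) and 2284 lower (16.2%). Of the 4382 genes called in WT, 2966 were called the same way there, 6 the opposite way and 1410 not called. Of the genes that changed at least 2-fold in WT, 310 of the 319 falls and 150 of the 163 rises had the same sign, 250 and 89 of them called. Across the 10428 genes with a mean of at least 2 on the log2 CPM scale Pearson's r between the changes was 0.814 and Spearman's rho 0.79, and over all 14076 genes they were 0.436 and 0.636, a description across genes, which are not independent replicates. The median ratio of the labelled TTP-KO to the WT change among the 294 of these genes that moved at least 2-fold was 0.956, and over all 482 such genes 0.853. Both sets were picked by the WT change that divides the ratio, which pulls it below 1, so it does not show a smaller change in the libraries labelled TTP-KO. Zfp36 itself was at 568, 553 and 572 CPM at 2 h and 349, 322 and 301 CPM at 4 h in the libraries labelled TTP-KO. Its count was thus not lower there than in WT: it lay above the WT libraries at 2 h and overlapped them at 4 h. The sources used here do not say where the allele was altered, and a count over the whole gene cannot check those labels if the altered part is small.

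**Figure D5:**
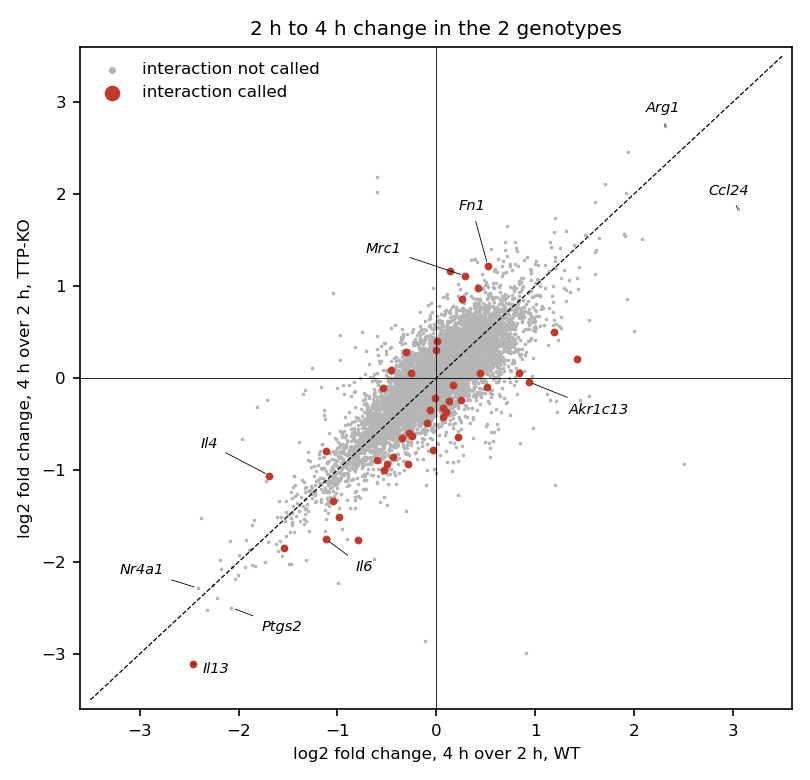
Log2 fold change from 2 h to 4 h in the libraries labelled TTP-KO (vertical axis) against WT (horizontal axis), 1 point for each of the 10428 genes whose mean log2 CPM was 2 or more; the dashed line is equality and red points are called in the test of the difference. Most genes lie along the line, with Il13 below it and Il4 above it.

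The change from 2 h to 4 h differed between the genotypes in 44 genes (0.313%) by the interaction term, 32 of them also called in WT. Il13 fell further in the libraries labelled TTP-KO, from 1230, 1201 and 1184 CPM to 137, 147 and 135 CPM, an interaction of -0.65 (SE 0.075, adjusted p = 4.88e-05). Il6 fell further as well, from 6886, 6851 and 6621 CPM to 2146, 2061 and 1845 CPM (interaction -0.63, adjusted p = 0.00328). Il4 fell less, from 2664, 2605 and 2393 CPM to 1301, 1187 and 1186 CPM (interaction 0.63, SE 0.10, adjusted p = 0.0123). The 2 type 2 cytokines thus differed from WT in opposite directions, Il13 by its level at 2 h, where the genotypes' libraries do not overlap, and Il4 by its level at 4 h. Ccl24 rose to 26.2, 27.8 and 19.5 CPM there, with an interaction of -1.21 that did not pass (adjusted p = 0.0514), and Ccl22 to 5.09, 3.63 and 5.03 CPM (interaction -1.07, SE 0.37, adjusted p = 0.305).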

How the data were processed

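The 18 libraries were made from polyadenylated RNA by cDNA synthesis on beads with tailing. The deposited table holds an estimated count for each gene, with decimals and with library sums that differ, so the authors had not normalized it. The tools named in the submitters' processing notes are STAR 2.7.10a, RSEM 1.3.1, cutadapt 3.5 and R 4.4.0 and 4.4.1, with the build GRCm39 and no roles. Strand setting and annotation release were not given in the sources used here, so antisense partners and near-identical copies (Akr1c13, Hba and Ccl3 relatives) are uncertain. Depth ran from 5516580 to 12733172 counts, and the most abundant gene, a ribosomal RNA, took 8.33 to 9.82% of the WT antigen libraries.

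Rounded counts were fitted with edgeR 4.0.16 (R 4.3.3): filterByExpr, TMM, a robust quasi-likelihood fit of 6 group means over all 18 libraries (12 residual degrees of freedom, biological coefficient of variation 0.0905), and Benjamini-Hochberg adjustment over all 14076 genes tested at 0.05. Of the 56413 genes, 23517 had no count in any library. The SE was computed as |log2 fold change| / sqrt(F), CPM used TMM-scaled library sizes, and intervals are Wilson intervals that cover counting error only. The fit was tested on simulated data for this comparison on 14076 genes: 68 of 100 genes changed 1.5-fold and 85 of 100 changed 2-fold were recovered, with 8 others called. Those were the only genes changed in the simulation, all with a level of at least 2 on the log2 CPM scale. In the data 4382 genes were called, so these shares do not give the recovery in the data. DESeq2 1.42.0 was an alternative. The rule for naming took the 15 largest falls and rises in fold change and the 6 largest in CPM among called genes with non-overlapping libraries and a mean log2 CPM of at least 2, up to 4 called members of each list, Zfp36, and the 6 smallest interaction p in each direction among genes called in WT. Egr1, Egr2, Nr4a2, Junb, Fos, Myc, Atf3, Irf4, Dusp5, Csf1, Tnf, Osm, Il3, Csf2, Ccl17, Cxcl2, Socs1, Fcer1a, Fcer1g, Ms4a2, Prss34, Mcpt8, Zfp36l1, Ncl, Npm1, Chil3, Itgax, Retnlg, Aldoa and Eno1 fall outside it and were chosen after their values were seen. All lists and comparisons were chosen with earlier results of these data known, and the list of reported TTP targets is not independent evidence of direction.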

Additional observations from a re-analysis of the deposited data

Results flagged for a closer look

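Groups of 3 libraries were too small for a check of single outlying samples. In 19 named genes the change from 2 h to 4 h differed between the libraries labelled TTP-KO and WT by the edgeR interaction term (adjusted p under 0.05), against 44 of all 14076 genes (0.313%). The naming rule itself took in the 6 smallest interaction p in each direction, so the 19 are no measure of how often named genes differ. The difference is given as TTP-KO minus WT on the log2 scale. This difference was negative for Akr1c13 (-0.982), Osm (-0.971), Il13 (-0.646), Il6 (-0.63), Pim3 (-0.521), Socs1 (-0.496), F2r (-0.478), Ier3 (-0.42), Snap23 (-0.382), Ccl6 (-0.378), Ccl4 (-0.305), Cdkn1a (-0.291) and Ccl9 (-0.246). It was positive for Mrc1 (0.824), Fn1 (0.701), Il4 (0.629), Dab2 (0.595), Ptgr3 (0.548) and Kctd12 (0.328). Osm, a cytokine of the IL-6 family, was at 927 to 955 CPM at 2 h and 451 to 664 CPM at 4 h in WT, and at 991 to 1094 CPM and 289 to 332 CPM in the libraries labelled TTP-KO. Akr1c13, an aldo-keto reductase that may share reads with a close copy (not tested), was at 59.0 to 65.8 CPM and then 112 to 134 CPM in WT, and at 61.8 to 66.6 CPM and then 54.8 to 65.7 CPM there. Mrc1, the macrophage mannose receptor, went from 52.8 to 61.4 CPM to 66.3 to 70.9 CPM in WT and from 53.9 to 61.6 CPM to 119 to 138 CPM there. The WT calls of Mrc1 and Dab2 are small: Mrc1 lost its call without the first 2 h library (change 0.22, adjusted p = 0.0506), and Dab2 (0.26) lost it without either of 2 libraries at each time (0.19 to 0.24, adjusted p from 0.0582 to 0.13).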

How the results depend on the processing

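The 482 genes changed at least 2-fold numbered 440 to 514 when each WT antigen library was left out in turn, 453 with DESeq2 and 465 with libraries thinned to the smallest. Over those left-out libraries, the genes changed ran from 3634 to 3903, those higher from 1512 to 1777 and those lower from 1938 to 2265. Testing for more than a 1.2-fold change left 1780 genes (712 higher, 1068 lower), 1784 in the libraries labelled TTP-KO and 3 for the interaction, as a stricter test must give fewer. Scaling by library totals alone, an alternative added after seeing the data, gave 4614 higher and 1191 lower. The 44 interaction genes became 134 without the filter, 103 with DESeq2 (where 1099 genes had no adjusted p) and 26 to 53 with 1 library left out, the fewest without the third 4 h library; the cause was not tested. Same-numbered libraries of the 2 times did not deviate together (correlations -0.00639, 0.0232 and -0.0302). That cannot tell whether equal numbers mark a shared mouse, culture or day, because the spread among libraries may be technical. A fit with the replicate block gave 4337 genes (2108 higher, 2229 lower), 4320 in the libraries labelled TTP-KO and 43 interaction genes. Of 187 genes followed through 18 alternatives, 178 were called, 149 of those kept call and direction in all 18, 29 lost the call in at least 1 and 0 reversed. The few members called higher in mostly falling lists depended on single libraries: the 2 cytokines, 2 NF-kB genes, 1 MAP kinase feedback gene and 3 calcium pathway genes came to 0, and the 3 cholesterol and 3 cytokine feedback genes to 1, without at least 1 library. Promoter shares counted over the 250 bases before the start alone stayed within their intervals for 21 of 30, and the other 9, all over all genes, were lower. Low counts limit the scarce rises, and 4 h libraries were deeper than 2 h ones.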
